A study of Mus musculus with 4 samples.

Results

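Radial glia-like cells (RGL) are the neural stem cells of the adult dentate gyrus, the part of the hippocampus in which granule neurons are born throughout life. The 1387 nuclei described here are those to which the authors' cluster label RGL was given, of 14367 nuclei in the deposited table, a share of 9.65% (exact Clopper-Pearson 95% interval 9.18 to 10.1%, over nuclei pooled from all libraries). That interval covers the sampling of nuclei only and leaves out differences between libraries. The nuclei came from mice of both sexes on a C57Bl/6J background. An age of 6 to 8 weeks is given for the mice, without the point at which it applied. It cannot be the age at collection of every cohort, and age at collection is not stated. The mice carried the reporter CAG-floxStop-Sun1/sfGFP and a Cre recombinase that tamoxifen switches on. Tamoxifen activated the recombinase in the cells that expressed it, and these cells and all their descendants then carried a green tag on the nuclear membrane by which they were sorted. Tagged nuclei were collected from left dentate gyri 1, 2, 4 or 8 weeks after tamoxifen (cohorts w1, w2, w4 and w8), and the RNA of single nuclei was counted as unique molecular identifiers (UMIs). Every cohort carried both alleles and received tamoxifen, so there was no untagged or untreated group, and RGL that did not express the recombinase at induction carried no tag.

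Each cohort was a single library made from 4 pooled dentate gyri, and 2 cohorts were processed per day, so weeks differed without a replicate and no test between weeks was possible. RGL numbered 486, 461, 357 and 83 nuclei from the earliest to the latest cohort, or 17.0, 10.9, 9.32 and 2.42% of the kept nuclei of each library. From w4 alone the authors had left out further nuclei, which they propose could come from a single outlier male mouse. Their summed depth was 2299365, 2128603, 1358325 and 313734 UMIs in the same order, so that levels in w8 were the least precise. The median RGL nucleus held 4091 UMIs and 2028 detected genes. Levels are given as CPM, the UMIs of a gene per 1e+06 UMIs counted in those nuclei, and the intervals beside them are exact Poisson 95% intervals that cover counting error only. A gene with no UMI may still have up to 3, which is 0.492 CPM over all RGL and 9.56 CPM over those of w8.

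An RGL has its cell body in the subgranular zone and sends a radial process through the granule cell layer. It shares much of its gene program with astrocytes, including uptake of glutamate, and most RGL rest outside the cell cycle. When one is activated it divides and gives rise to intermediate progenitors (NPC), which multiply and turn into neuroblasts, and it can also give rise to astrocytes. Notch, BMP and Wnt signals from neighbouring cells are known to hold stem cells at rest or release them.

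The promoters of Wnt8b, Hopx and Thrsp are shown first, since these 3 markers were also among the genes highest in RGL of all clusters. They are the RefSeq windows of GRCm38.p6 from 250 bases before to 50 bases after the annotated start, read 5′ to 3′ on the strand of the gene. Wnt8b lies at chr19:44493222-44493521 on the plus strand, Hopx has 2 starts at chr5:77115074-77115373 and chr5:77095218-77095517 on the minus strand, and Thrsp lies at chr7:97417501-97417800 on the minus strand. Capitals mark matches to CCAAT, the box read by the factor NF-Y (ATTGG when it lies on the other strand), and to CAGCTG, an E-box that proneural factors can bind.
Wnt8b: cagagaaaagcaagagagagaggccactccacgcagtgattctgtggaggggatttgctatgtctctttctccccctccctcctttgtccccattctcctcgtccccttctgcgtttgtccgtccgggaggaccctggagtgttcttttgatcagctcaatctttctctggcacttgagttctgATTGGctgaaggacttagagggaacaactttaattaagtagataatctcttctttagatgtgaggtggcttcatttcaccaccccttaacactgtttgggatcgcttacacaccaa
Hopx window 1: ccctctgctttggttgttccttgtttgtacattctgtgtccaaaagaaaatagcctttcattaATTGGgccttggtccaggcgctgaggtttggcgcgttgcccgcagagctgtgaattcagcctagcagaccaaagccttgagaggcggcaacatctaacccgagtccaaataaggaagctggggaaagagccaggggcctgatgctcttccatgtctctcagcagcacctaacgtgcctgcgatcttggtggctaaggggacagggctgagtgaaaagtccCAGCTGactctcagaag
Hopx window 2: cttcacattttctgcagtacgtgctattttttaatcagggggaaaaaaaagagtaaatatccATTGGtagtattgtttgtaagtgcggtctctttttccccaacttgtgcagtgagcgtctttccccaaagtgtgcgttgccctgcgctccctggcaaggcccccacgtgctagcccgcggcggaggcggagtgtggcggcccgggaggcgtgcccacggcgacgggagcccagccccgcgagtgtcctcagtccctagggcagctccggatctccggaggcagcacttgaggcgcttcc
Thrsp: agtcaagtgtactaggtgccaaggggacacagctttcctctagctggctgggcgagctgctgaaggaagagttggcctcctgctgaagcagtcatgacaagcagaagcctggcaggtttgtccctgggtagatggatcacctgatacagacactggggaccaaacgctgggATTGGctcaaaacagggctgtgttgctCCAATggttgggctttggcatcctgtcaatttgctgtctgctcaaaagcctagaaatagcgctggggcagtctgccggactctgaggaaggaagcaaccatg
All 4 windows held CCAAT on either strand, with 2 matches in Thrsp, and window 1 of Hopx held CAGCTG. None held TGGGAA, a core of the Notch effector RBPJ, or ACAATG, a core of SOX factors, and no match overlapped another. Among all 32851 windows of the table, CCAAT occurred on either strand in 37.4%, CAGCTG in 16.3%, TGGGAA in 25.6% and ACAATG in 12.6%. These are matches of letters, with no measure of binding.

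The levels of 6 markers are described first. The clusters were made and named from the same counts, so these levels describe the label and do not test it. Hopx (a homeodomain protein of quiescent stem cells), Thrsp (a regulator of lipid synthesis), Lpar1 (a receptor of lysophosphatidic acid), Wnt8b (a Wnt ligand), Fam20a (a pseudokinase of the secretory pathway) and Slc1a3 (the glutamate transporter GLAST) were all higher in RGL than in the mean of all other nuclei. Hopx was at 295, 329, 316 and 245 CPM in RGL of w1, w2, w4 and w8, against 53.7 CPM in astrocytes, 36.1 in NPC and 5.92 in oligodendrocyte precursor cells (OPC). Wnt8b was at 57.0, 81.7, 75.8 and 31.9 CPM, with 1 UMI in astrocytes and none in NPC or OPC. In every week both genes were higher in RGL than the pooled level of these 3 clusters, but w8 itself held no astrocyte and only 2 NPC nuclei. Thrsp was at 401, 544, 606 and 586 CPM, with 155 CPM in astrocytes and 246 CPM in NPC. Lpar1 was at 196, 137, 159 and 134 CPM, with no UMI in astrocytes and OPC and 31.7 CPM in NPC, but pericytes had 777 CPM and oligodendrocytes 401 CPM. Slc1a3 was at 5293, 4435, 4477 and 4749 CPM, against 2575 CPM in astrocytes, 1667 in NPC and 323 in OPC. Fam20a went the other way from the label: it was at 89.6, 72.3, 76.6 and 300 CPM (w8 interval 242 to 367), and astrocytes held 337 CPM. In w1, w2 and w4 it was lower in RGL than in astrocytes (log2 difference −2.01).

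**Figure D1:**
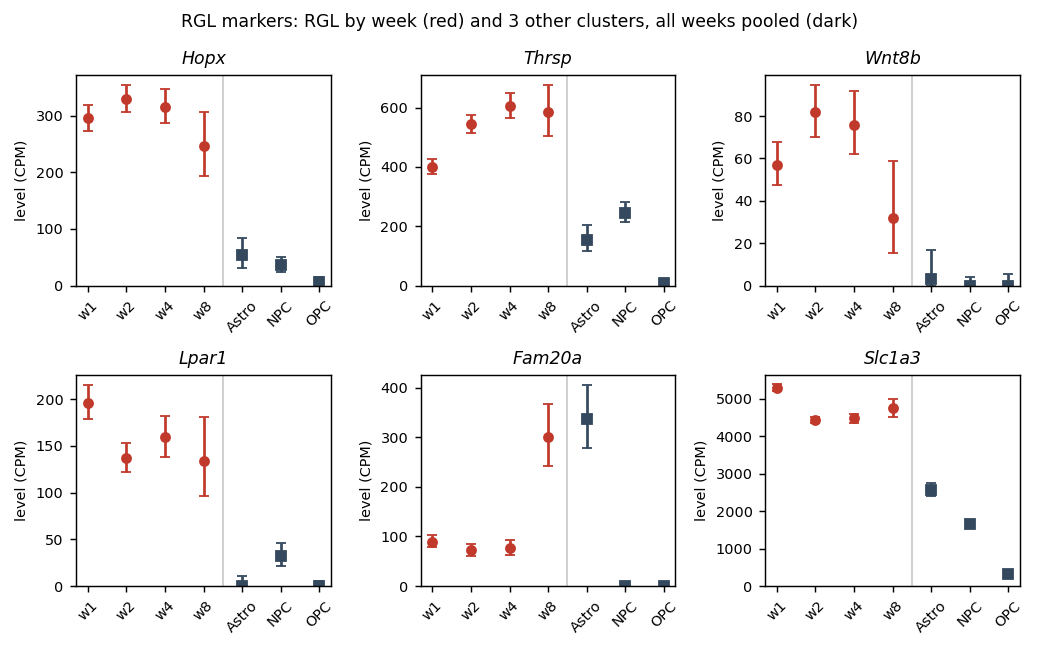
Level of the 6 RGL markers in CPM, in RGL of each week (red points with exact Poisson 95% intervals) and in astrocytes, NPC and OPC with the libraries pooled (dark squares). Hopx, Thrsp, Wnt8b and Slc1a3 lay above the pooled levels of the 3 other clusters in every week, whereas Fam20a was at 337 CPM in astrocytes and at 300 CPM or less in RGL.

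Nucleus by nucleus, most members held UMIs of several of these markers, again within the counts that made the cluster. At least 3 of the 6 markers had a UMI in 1010 RGL nuclei (72.8%), against 25 of 67 astrocytes (37.3%), 30 NPC (14.2%) and no OPC. Only 15 RGL nuclei had all 6, 80 had 1 and 4 had none. Depth was similar, as the median nucleus held 4278 UMIs in NPC, 4670 in astrocytes and 4750 in OPC.

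A group of 4 RGL nuclei stood apart. They held 158, 33, 550 and 63 UMIs of Htr2c, the serotonin 2C receptor, while no other RGL nucleus had more than 3. They came from w1, w2 and w4 and had between 6077 and 16757 UMIs each. None had a UMI of Slc1a3 or of Gpc5, 2 genes with a high level in the rest of the cluster, and 3 of them were among the 4 nuclei without any marker UMI. These nuclei carried 98.8% of the RGL UMIs of Htr2c, 86.7% of those of Trpm3 (a cation channel), 62.1% of Enpp2 (autotaxin, which makes lysophosphatidic acid) and 47.8% of Ttr (transthyretin). Without them Htr2c in RGL was at 1.65 CPM, Enpp2 at 48.7 and Ttr at 58.1, while Hopx stayed at 311, Thrsp at 510 and Wnt8b at 69.0 CPM. Results that rest on these nuclei are given with and without them.

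Marker lists of other cell types, of 8 genes each, were summed in RGL and set beside the other clusters. The astrocyte list summed to 528, 496, 445 and 854 CPM in RGL of w1 to w8, against 2521 CPM in astrocytes and 16.0 CPM in mature granule cells (GCmat1), and none of its genes was at 0 over the pooled RGL. Grin2c, its most restricted member, was at 3.91, 1.88, 2.21 and 3.19 CPM in RGL and at 307 CPM in astrocytes. The OPC list summed to 33.9 to 58.2 CPM (8430 in OPC), the oligodendrocyte list to 38.2 to 108 CPM (16748 in oligodendrocytes) and the granule neuron list to 318 to 481 CPM (9083 in GCmat1). The vascular and pericyte list reached 209 to 258 CPM (6232 in pericytes) with its defining genes Tbx18 and Slc6a13 at 0 in RGL of every week. Cped1, Ranbp3l and Pdgfrb gave 581, 391 and 386 of its 1369 RGL UMIs. These 3 were the members considered and were called higher in RGL than in the rest, NPC and OPC, with medians of 2.60, 2.59 and 3.73, and the part of vascular RNA in them was not tested. Against astrocytes Cped1 was higher (1.74), Ranbp3l lower (−1.21) and Pdgfrb not called (−0.41). The inhibitory neuron list reached 287 to 394 CPM, or 345 CPM over all RGL, against 424 CPM in astrocytes, 339 in OPC, 308 in NPC and 75.7 in GCmat1. The microglia list summed to 44.6 to 79.2 CPM with Trem2 at 0, and the endothelial list to 9.56 to 24.0 CPM. The ependymal list was higher in RGL than in any other cluster, at 166 to 236 CPM by week and 205 CPM over all RGL against at most 84.3 CPM (GCyoung), and Cfap54 gave 1147 of its 1251 RGL UMIs. Cfap54, a gene of the ciliary axoneme, was called higher against the rest, astrocytes, NPC and OPC, and the part of ependymal RNA in it was not tested. Of 22 barcodes shared between kept nuclei of different libraries, 1 belonged to an RGL nucleus. Sox1 and Sox2, stem cell genes used in sections, had no UMI in any kept nucleus, and each lies within a longer overlapping transcript (Sox1ot and Sox2ot) on the same strand, so nothing can be read from that.

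Comparisons below used sums of UMIs per library. A gene was considered at a mean level of at least 10 CPM and 20 UMIs, and was called higher or lower where the groups differed at least 2-fold, after adding 5 CPM to each level, in the same direction in every library with at least 10 nuclei of both groups. Because clusters were made from the same counts, these calls are descriptions and carry no p-value.

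Genes that were highest in RGL among all 13 clusters numbered 71 of 9706 considered (0.732%), with at least a 2-fold margin over the next cluster. When only clusters of at least 100 nuclei were compared, which leaves out astrocytes, oligodendrocytes and pericytes, the number was 438, all 71 included. The next cluster was astrocytes for 26 of them, NPC for 23 and pericytes for 7. The margin was widest for Wnt8b, at 68.5 CPM (62.1 to 75.4) over all RGL against 3.16 CPM in pericytes (log2 difference 3.17), and Hopx followed, at 309 CPM against 53.7 in astrocytes (2.42). Ttll3, a tubulin glycylase gene of cilia, was at 386 CPM against 68.6 in astrocytes (2.41). Sntb1, a scaffold of the dystrophin complex, was at 452 against 83.2 CPM in NPC (2.37), and Shroom3, which shapes the apical actin network, at 848 against 174 CPM in neuroblasts NB1 (2.25). After these came Slc2a9 (a urate transporter, 112 against 19.7 CPM), Riiad1 (92.3 against 16.4), Usp35 (a deubiquitinase, 152 against 32.8) and Cmya5 (175 against 41.8). Tnc encodes tenascin-C, a matrix protein of stem cell niches, and was at 544 CPM against 149 in astrocytes. Tiparp, an ADP-ribosyltransferase, was at 432 against 128 CPM. Of the 6 markers, Hopx, Thrsp and Wnt8b were among the 71, Thrsp close to the limit at 506 against 246 CPM in NPC (1.02). These levels were pooled over libraries, and with levels averaged over libraries, as in the comparison with NPC below, Thrsp was under the limit. Others near it were Cables1 (667 against 325 CPM), Kctd1 (327 against 157), Pcsk6 (a proprotein convertase, 324 against 158), Cd27 (54.3 against 24.1) and Lace1 (292 against 143). Notch2, a Notch receptor, was at 1010 CPM against 477 in pericytes, and was the only member of the Notch pathway list among the 71. Promoter sequences were at hand for 42 of the 71 genes, under 80%, so no motif share over the set is given.

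Against all other nuclei, 1421 of 9870 genes were higher in RGL (14.4%) and 1174 lower (11.9%). The most raised was Tnc, at 492 CPM in RGL against 2.63 in the rest (log2 difference 6.02), with 731, 426, 459 and 351 CPM in RGL of w1 to w8 and no more than 5.34 CPM outside RGL in any of them. Next came Sntb1 (456 against 4.70 CPM, 5.57), Pdgfd (a PDGF ligand, 422 against 5.89, 5.29), Gli3 (a transcription factor of hedgehog signalling, 668 against 15.4, 5.04) and Siah3 (356 against 5.98, 5.04). Slc1a3 was at 4739 against 140 CPM (5.03) and Adgrv1, an adhesion receptor, at 1550 against 44.0 CPM (4.99). Bcar3 (269 against 3.42 CPM, 5.02), Hopx (296 against 4.54, 4.98), Acss1 (a mitochondrial acetyl-CoA synthetase, 372 against 7.29, 4.94), Pcsk6 (346 against 6.57, 4.92) and Pawr (246 against 3.42, 4.90) completed the named set. The lowest were genes known from neurons. Kcnb2, a potassium channel, was at 10.4 CPM in RGL against 1679 in the rest (−6.77), Cntnap5a at 19.6 against 2325 (−6.57), the guidance cue gene Slit3 at 12.9 against 1418 (−6.31), Hecw1 at 6.87 against 885 (−6.23), the splicing regulator Rbfox1 at 46.6 against 3726 (−6.18) and the neuregulin gene Nrg3 at 72.3 against 5538 (−6.16). The median of all genes was 0.11, and it moved to −0.19 with TMM and −0.15 with RLE scaling, by which 1075 genes were higher and 1540 lower (TMM) or 1126 and 1468 (RLE). The share of higher calls fell from 54.8% to 41.1% and 43.4%.

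Of the 24 stem cell and radial glia genes, 18 were considered and 15 were higher in RGL, none lower, with a median of 2.69. Id4, which keeps stem cells at rest, was at 204 against 3.90 CPM (4.56), Sox9 at 118 against 5.55 (3.54), Gfap, the intermediate filament of radial processes and astrocytes, at 118 against 5.49 (3.55), Nr2e1 (TLX, required for stem cell maintenance) at 63.4 against 1.51 (3.39) and Tfap2c at 44.4 against 0.542 (3.16). Pax6 (81.3 against 9.83 CPM, 2.54) and Prom1 (30.4 against 1.88, 2.36) were raised as well. Neuronal commitment genes were mostly lower, 8 of 14 considered with a median of −2.22, though Neurog2, a proneural factor, was higher. Of the GABA and glutamate receptors, 19 of 30 considered were lower and 4 higher. The higher ones included Gabrb1 (4557 against 948 CPM) and Gabrg3 (761 against 239), which encode GABA-A subunits, and Grm3 (609 against 61.0), a metabotropic glutamate receptor.

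Astrocytes, the other glia that RGL can give rise to, were compared next, and 67 of them in w1, w2 and w4 (22, 21 and 24 nuclei) were used. Of 9600 genes considered, 1050 were higher in RGL (10.9%) and 575 lower (5.99%), with a median over all genes of 0.17. The balance depended on the scale, since a pseudocount of 20 CPM gave 455 higher and 389 lower and the deposited log2 values gave 24 and 54. With the counting interval of the ratio required to be clear of 1, 919 higher and 572 lower genes were left. Thinned to 2000 UMIs the counts were 1322 and 537, with 741 of the 1050 and 369 of the 575 among them. A single astrocyte library had 3 UMIs at 23.0 to 32.5 CPM, so calls at low astrocyte levels rested on a few UMIs. Adgrv1 was at 1624 CPM in RGL against 38.4 in astrocytes (log2 difference 5.23), and at 1415 to 1909 CPM in every RGL library against at most 44.5 in any astrocyte library. Dscaml1, an adhesion molecule, was at 751 against 19.1 CPM (4.97). Kcnq5, a potassium channel, had 1 UMI in astrocytes and was at 598 CPM in RGL (ratio 196, interval 35.1 to 7740). Pde1a, a phosphodiesterase, was at 445 against 6.17 CPM (ratio 77.0, 21.3 to 637) and Cdk6, the cyclin D partner kinase, at 244 against 6.17 CPM (ratio 40.3, 11.1 to 333), each with few astrocyte UMIs. Edil3 was at 128 CPM with no UMI in astrocytes, at least 13.9-fold higher. Htr2c also met the call, with a difference of 4.77 that became 0.42 without the 4 nuclei rich in it.

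Genes lower in RGL than in astrocytes included many that mature astrocytes use. Grin2c, an NMDA receptor subunit, was at 2.67 against 295 CPM (−5.29), Atp13a4 at 2.18 against 262 (−5.22), the protocadherin gene Pcdh7 at 25.4 against 1117 (−5.21), Vav3 at 4.43 against 289 (−4.96), Brinp3 at 2.55 against 204 (−4.79), Cdh20 at 24.9 against 800 (−4.75), Fam163a at 2.34 against 134 (−4.25) and Mir124-2hg at 2.39 against 127 (−4.16). Of the 26 astrocyte homeostasis genes, all were considered, 18 were lower in RGL and none was higher, with a median of −1.61. The bicarbonate transporter gene Slc4a4 was at 208, 153 and 167 CPM in RGL of w1, w2 and w4 against 2605, 1931 and 1897 in astrocytes (−3.57). The amino acid transporter gene Slc7a10 was at 32.2 against 307 CPM (−3.07), glutamine synthetase (Glul) at 121 against 754 (−2.59), the water channel gene Aqp4 at 16.8 against 115 (−2.47), the protease gene Htra1 at 98.9 against 545 (−2.40) and the gap junction gene Gja1 at 94.1 against 362 (−1.89). The glypican Gpc5 was at 3850 against 12824 CPM (−1.73) and the glutamate transporter gene Slc1a2 at 3272 against 7869 CPM (−1.26). The same list was higher in RGL than in all other nuclei, other glia included, for 20 of 23 considered, and than in NPC for 17 of 22. Most of its members thus lay below astrocytes and above NPC. This order is not shown for members that were not called, such as Apoe and Cst3 against astrocytes. Slc1a3 differed from astrocytes in the opposite direction, at 4735 against 2553 CPM, but its difference of 0.89 was under the 2-fold limit.

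Of the stem cell and radial glia genes, 18 were considered against astrocytes. In RGL 4 of them were higher, where 10.9% of all genes were, and none lower, with a median of 0.61, and 7 were higher without w2. Tfap2c was at 51.8, 63.4 and 36.8 CPM with no astrocyte UMI, at least 5.87-fold higher. Notch2 was at 1034 against 283 CPM (1.85) and the cortical homeobox gene Emx1 at 53.3 against 13.8 CPM (1.63). Gfap, at 121 against 218 CPM (−0.82), Sox9, at 140 against 185 CPM (−0.39), and Id4, at 199 against 179 CPM (0.15), did not reach a 2-fold difference. Among the neuronal commitment genes, Elavl2 was at 73.1 against 11.5 CPM (2.25), Elavl4 at 98.2 against 2.55 (1 UMI, ratio 33.0, 5.89 to 1304) and Prox1, the granule cell identity factor, at 205 against 42.3 CPM (2.15). These were the 3 higher of 12 considered, with 5 higher without w4, while Rgs6 was lower at 16.3 against 317 CPM (−3.92) and 8 were not called.

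Against NPC, the next stage of the lineage, 944 of 10185 genes were higher in RGL (9.27%) and 1416 lower (13.9%), over 112, 75 and 22 NPC nuclei of w1, w2 and w4. The median over all genes was −0.22, which moved to 0.12 with TMM and 0.08 with RLE scaling. Under these scalings 1485 genes were higher and 821 lower (TMM), or 1410 and 875 (RLE), so that the share of higher calls went from 40.0% to 64.4% and 61.7%. Csmd1, a membrane complement regulator, was at 2575 CPM in RGL against 80.9 in NPC (4.91). Ctnna3 was at 407 against 15.8 CPM (4.31), Pawr, a pro-apoptotic protein, at 252 against 8.07 (4.30), Gpc5 at 3850 against 208 (4.18), Plce1 (a phospholipase C) at 175 against 6.11 (4.02) and Gabrb1 at 4323 against 264 (4.01). Fam20a had no UMI in NPC and was at least 24.1-fold higher in RGL, and the transporter gene Abca8b had 1 (ratio 89.7, 16.0 to 3551). The genes furthest lower included ones of division and of the neuronal fate. Dcc, the netrin receptor, was at 64.5 against 3987 CPM (−5.84), Top2a, a topoisomerase of dividing cells, at 6.21 against 537 (−5.59) and Eomes (TBR2), the marker of intermediate progenitors, at 0.783 against 182 (−5.01). Unc5d (4.22 against 405 CPM), Srrm4 (9.75 against 599), Myt1 (2.44 against 296), Neil3 (3.37 against 304) and Mdga1 (5.08 against 364) lay between −5.48 and −5.19.

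Among stem cell and radial glia genes, 6 of 19 considered were higher in RGL than in NPC and 1 lower, which became 9 and none under TMM or RLE. Id4 was at 241, 200 and 157 CPM in RGL of w1, w2 and w4 against 22.0, 3.08 and 13.1 in NPC (3.53). Notch2 was at 1034 against 98.7 CPM (3.32), Gfap at 121 against 29.7 (1.86) and Tfap2c at 50.7 against 15.0 (1.47), while Sox9 was at 140 against 62.5 (1.11), which became 0.82 without w1. The list's lower gene, the homeobox gene Lhx2, sat at the limit (91.8 against 189 CPM) and was not called without w1 (−0.96), without w2 (−0.82) or under TMM (−0.64). Of the neuronal commitment genes, 9 of 16 considered were lower in RGL and none higher, among them Elavl2 (73.1 against 965 CPM, −3.63), Igfbpl1 (47.4 against 523, −3.33), Sox4 (42.5 against 304, −2.70), Sox11 (43.1 against 217, −2.21) and Dcx, the neuroblast marker (5.27 against 164, −4.04). Prox1 was at 205 against 314 CPM (−0.60), under the limit.

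**Figure D2:**
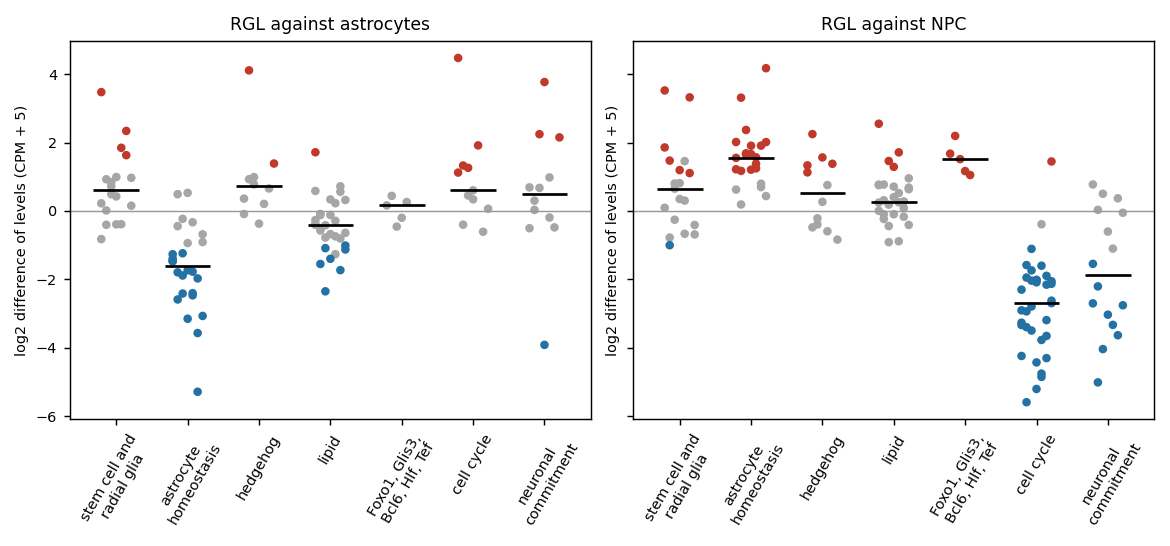
Log2 difference in level (pseudocount 5 CPM) of each considered gene of 7 gene lists, RGL against astrocytes (left) and against NPC (right). Each point is 1 gene, red where called higher in RGL, blue where called lower and grey where not called, and the bar is the median of the list. Astrocyte homeostasis genes lay at a median of −1.61 against astrocytes and 1.56 against NPC, and cell cycle and replication genes at 0.60 and −2.70.

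OPC served as a glial cluster outside the lineage, with 25 to 36 nuclei in every week. Of 9733 genes 1444 were higher in RGL (14.8%) and 1046 lower (10.7%), with a median of 0.23. Prex2, a Rac exchange factor, was at 3086 against 9.22 CPM (7.76) and the laminin gene Lama2 at 2118 against 5.92 (7.60), while Shroom3 had 1 OPC UMI (ratio 573, 103 to 22625). Gli3, Rmst (a long noncoding RNA), Sntb1 and Pdzrn3 had no UMI in OPC and were at least 149-fold, 127-fold, 102-fold and 94.1-fold higher, and Notch2 had 3 (ratio 227, 77.8 to 1103). The lower genes included several by which OPC are known. Lhfpl3 was at 18.1 against 9397 CPM (−8.67), Pcdh15 at 15.7 against 4815 (−7.87), tenascin-R (Tnr) at 16.1 against 4809 (−7.84) and Nxph1 at 2.39 against 3654 (−8.95). Brinp3 (−8.37), Dscam (−7.83), Adarb2 (−7.30) and Cntn4 (−7.29) followed. Stem cell and radial glia genes were higher in RGL for 14 of 18 considered and none lower.

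Signalling genes were read in the order of ligands, receptors and targets, and each count below stands beside the share of all genes called. Several counts were within 1.5 times of that share and say nothing particular about their list. Against the rest (14.4% of all genes higher, 11.9% lower) these were the lower Notch genes and the higher GABA and glutamate receptors. Against astrocytes (10.9% higher, 5.99% lower) they were the higher genes of the BMP and TGF-beta list, the receptors and the niche genes and the lower genes of the Wnt, neuronal commitment and quiescence lists. Against NPC (9.27% higher, 13.9% lower) they were the lower genes of the Notch, BMP, FGF, receptor and niche lists and the higher lipid genes, and against OPC (14.8% higher, 10.7% lower) the higher FGF and receptor genes and the lower genes of the homeostasis and cell cycle lists. In the Notch pathway, which holds stem cells at rest through contact with their progeny, 6 of 16 considered genes were higher and 2 lower in RGL than in all other nuclei, and 5 of 18 higher and 3 lower than in astrocytes. Of the receptors, Notch2 was higher against each of the clusters compared. Against astrocytes the ligand Jag1 was at 62.0 against 22.7 CPM (1.27, and 0.97 without w1), the DNA-binding effector Rbpj at 91.8 against 38.2 (1.16, and 0.88 without w4) and its coactivator Maml3 at 202 against 54.4 (1.80). The targets ran lower or did not differ. Hey1 was at 4.52 against 22.3 CPM (−1.52, from 7 astrocyte UMIs, and not called without w2), Hes1 at 18.4 against 49.2 (−1.21, and −0.87 without w2) and Hes5 at 82.7 against 110 (−0.39, not called). The third lower gene was the ligand Dner, at 7.59 against 64.1 CPM (−2.46), and without w2 only 1 gene was lower. Against NPC 3 of 19 were higher and 2 lower, or 4 lower without w2, and the lower genes, the ligand Dll1 (18.1 against 45.3 CPM, −1.12) and Maml3 (−1.20), were not called under TMM (−0.81 and −0.83), where 5 genes were higher. Dll1 was not called without w1 either (−0.93). Hes1 was higher than in NPC, at 18.4 against 1.69 CPM (1.80), a call lost without w1 (1.61) or w2 (1.83), where it fell under the limits on level or UMIs, and the glycosyltransferase gene Lfng at 46.0 against 10.1 CPM (1.75).

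In the hedgehog pathway, 9 of 11 considered genes were higher in RGL than in the rest and none lower (6 under TMM, 7 under RLE), with a median of 2.33. The ligand Shh had no UMI. The receptor Ptch1 was at 316 against 42.1 CPM (2.77), and the effectors Gli1 at 37.1 against 0.529 (2.93), Gli2 at 210 against 4.67 (4.47) and Gli3 at 668 against 15.4 CPM (5.04). Astrocytes held most of these genes too. Ptch1 at 327 against 253 CPM (0.36), Gli1 at 42.0 against 18.7 (0.99), Gli2 at 195 against 253 (−0.37) and Gli3 at 668 against 578 (0.21) were not called, and the 2 that were higher in RGL were the coreceptor Cdon (188 against 6.17 CPM, ratio 31.4, 8.68 to 260) and the decoy receptor Hhip (21.5 against 5.11 CPM, 1.39, and 0.85 without w4), the latter from 2 astrocyte UMIs with a counting interval of the ratio that spans 1 (0.925 to 28.6). Without w1, 5 hedgehog pathway genes were higher than in astrocytes. Against NPC 5 of 12 were higher, among them the coreceptor Boc (65.4 against 9.81 CPM, 2.25), Gli1 (42.0 against 10.9, 1.57), Gli3 (1.38) and Ptch1 (1.33).

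Wnt pathway genes were higher in RGL than in the rest for 10 of 22 considered and lower for none. Beside Wnt8b, the ligand Wnt7b was at 26.0 against 5.80 CPM (1.52), the receptor Fzd6 at 74.9 against 2.80 (3.36), and the nuclear effectors Lef1 at 297 against 10.2 (4.32), Tcf7l1 at 101 against 5.38 (3.36) and Tcf7l2 at 449 against 44.5 CPM (3.20). Against astrocytes 4 of 24 were higher and 2 lower (4 lower without w2): Wnt8b, the secreted antagonists Frzb (64.8 against 2.97 CPM, ratio 22.1, 3.94 to 874) and Sfrp1 (34.4 against 5.52, 1.90), and Lef1 (267 against 22.5, 3.30) were the higher genes. Against NPC 9 of 23 were higher and 1 lower, including the R-spondin receptor Lgr4 (153 against 16.1 CPM, 2.90), Frzb (64.8 against 1.69, ratio 29.6) and Tcf7l1 (95.8 against 3.39, ratio 21.7). Of the BMP and TGF-beta pathway, 3 of 24 were higher and 4 lower than in astrocytes, or 6 higher without w1. The BMP modulator Bmper was higher (299 against 69.8 CPM, 2.02), whereas Id1, Id2 and Id3, direct targets of BMP signals, were lower at 12.5 against 32.9 (−1.11), 22.7 against 214 (−2.98) and 24.7 against 174 CPM (−2.59). Against NPC the same list had 5 of 21 higher and 2 lower (4 lower without w4), and the receptor Bmpr1b was higher at 371 against 77.3 CPM (2.19).

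Among FGF, EGF and Etv genes none of 17 considered was higher than in astrocytes and 5 were lower, with a median of −0.59. The receptors Fgfr3 (98.6 against 243 CPM, −1.26) and Erbb4 (55.1 against 321, −2.44) and the ligand Fgf1 (42.8 against 135, −1.55) were lower, as was Etv5, a transcription factor downstream of FGF (54.4 against 128, −1.16, and −0.85 without w1). Against NPC 7 of 16 were higher and 2 lower, the latter near the share of all genes. The growth factor receptor gene Egfr was one of the 2, at 414, 378 and 274 CPM in RGL of w1, w2 and w4 against 741, 940 and 1520 in NPC (−1.57), and Etv4 was higher at 63.8 against 8.12 CPM (2.39).

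Lipid synthesis and oxidation has been tied to the resting state of RGL, and Thrsp marks it. Of 28 genes considered, 12 were higher in RGL than in the rest and 1 lower, with Acsl3, an acyl-CoA synthetase, at 702 against 41.5 CPM (3.93). Against astrocytes Thrsp alone was higher, at 517 against 154 CPM (1.72), and 7 of 29 were lower. These included Gpam, the first enzyme of glycerolipid synthesis (25.6 against 151 CPM, −2.35), Hmgcs1 of cholesterol synthesis (34.6 against 126, −1.73), Acsl6 (79.7 against 243, −1.55) and Ppara, a nuclear receptor that drives fatty acid oxidation (33.5 against 96.6, −1.40). Against NPC 4 of 29 were higher and none lower, or 9 under TMM and RLE, and Acsl3 was at 593 against 96.9 CPM (2.55). Thrsp did not pass there, at 517 against 304 CPM (0.76). Of the lysophosphatidic acid genes, the receptor Lpar1 was at 164 CPM with no UMI in astrocytes, at least 18.5-fold higher, and Plpp3, a phosphatase that removes this lipid, was at 1462 against 64.8 CPM in the rest (4.39). Enpp2, at 117 against 16.2 CPM in the rest (2.52), rested in part on the 4 nuclei rich in Htr2c, and without them its difference was 1.54.

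Of 5 transcription factors listed together for mature granule cells, Foxo1, Glis3, Bcl6, Hlf and Tef, each was higher in RGL than in NPC and none differed 2-fold from astrocytes. The first 4 are factors that the study describes, from a second dataset not used here, as shut off in NPC and expressed again later. In the present libraries NPC held these 4 at lower levels but did not lack them. Tef, which the study places in mature granule cells, was added to them here. The list was chosen with earlier results of these data known, so its direction is not independent evidence. Foxo1 was at 314, 205 and 247 CPM in RGL of w1, w2 and w4 against 46.1, 52.4 and 131 in NPC (1.68), Glis3 at 691 against 147 (2.20) and Bcl6 at 93.3 against 29.3 CPM (1.52). Hlf, at 145 against 61.9 CPM (1.17), and Tef, at 221 against 104 (1.05), were not called without w2 (0.97 and 0.94). Differences from astrocytes ran from −0.46 (Bcl6) to 0.44 (Glis3).

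Of 35 cell cycle and replication genes considered against NPC, 33 were lower in RGL and 1 higher, with a median of −2.70. Mki67, the proliferation marker, was at 2.04 against 128 CPM (−4.24), the replicative helicase gene Mcm6 at 27.2 against 237 (−2.91), the DNA polymerase gene Pola1 at 130 against 929 (−2.79), Cdk6 at 244 against 1003 (−2.02) and Ccnd2, a cyclin of the first growth phase, at 186 against 708 CPM (−1.90). The exception was Ccnd3, another D-type cyclin, at 135 against 46.2 CPM (1.45). Only 11 of these genes reached the level to be considered against astrocytes, of which 5 were higher in RGL and none lower, with a median of 0.60 that was 0.12 after thinning. Ccnd2 was at 167, 205 and 188 CPM in RGL of w1, w2 and w4 against 7.66, 53.4 and 75.9 in astrocytes (1.92), and Pola1 at 130 against 51.2 (1.26). Mcm7 was at 24.1 against 6.58 CPM (1.33, and 0.97 without w1), from 2 astrocyte UMIs (interval of the ratio 1.14 to 35.0). Mcm6 was at 27.2 against 9.78 CPM (1.12, and 0.96 without w1 or 0.95 without w2), from 3 astrocyte UMIs, and its interval spans 1 (ratio 2.92, 0.979 to 14.3). Of quiescence and cell cycle inhibitors, 3 of 17 considered were higher in RGL than in NPC and 7 lower, which became 4 and 4 under TMM and RLE. Klf9, a factor linked to stem cell quiescence, was higher (113 against 34.0 CPM, 1.60), while the pocket protein gene Rbl1 (15.2 against 194, −3.30) was lower.

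Per nucleus, the share with at least 2 UMIs over 31 replication and division genes was taken. It was 30.5% of RGL (423 of 1387, exact Clopper-Pearson interval 28.1 to 33.0%), against 91.0% of NPC and 16.4% of astrocytes. Mature granule cells, which do not divide, gave 42.6% at a median depth of 8138 UMIs, and neuroblasts NB1, which the study describes as postmitotic, 40.4%. With each nucleus thinned to 2000 UMIs, leaving out 15 RGL nuclei that were shallower, the share was 13.4% in RGL (11.7 to 15.3%), 86.4% in NPC, 16.6% in NB1, 11.5% in OPC, 6.32% in GCmat1 and 2.99% in astrocytes. By library the thinned share in RGL was 16.3, 10.8, 13.4 and 10.8% from the first to the last week. In NB1 it was 17.2, 15.1 and 20.0% in w1, w2 and w4, above RGL each time, and in GCmat1 8.68 and 6.01% in w4 and w8, below RGL each time. With at least 3 UMIs required, w1 went the other way, at 7.86% in RGL and 5.56% in NB1, while NB1 stayed above RGL in w2 and w4. Since 1 postmitotic cluster lay above RGL and another below, no share of cycling RGL can be read from these counts.

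**Figure D3:**
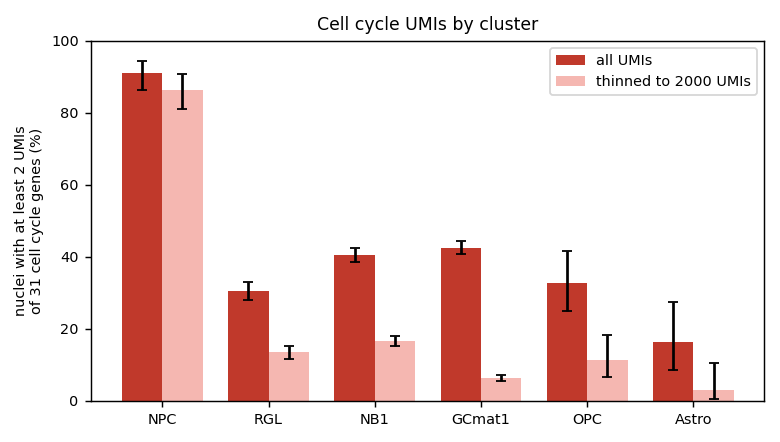
Percent of nuclei with at least 2 UMIs over 31 cell cycle and replication genes, in 6 clusters, from all UMIs and after thinning each nucleus to 2000 UMIs. Bars start at 0 and carry exact Clopper-Pearson 95% intervals. RGL went from 30.5% to 13.4% with thinning, and NPC from 91.0% to 86.4%.

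Of the GABA and glutamate receptors, 8 of 26 were higher in RGL than in NPC and 4 lower (15 and 3 under TMM), led by Gabrb1. Against astrocytes 4 of 29 were higher and 7 lower, the higher ones including the AMPA receptor gene Gria1 (760 against 258 CPM, 1.54), the NMDA receptor gene Grin2b (971 against 278, 1.78) and Gabrg3 (742 against 153, 2.24), and the lower ones Gabrg1 (5.75 against 111, −3.44). Niche adhesion and matrix genes were higher than in the rest for 12 of 22 considered and lower for 4. Against astrocytes 3 of 23 were higher and 7 lower: Efna5, an ephrin, was at 261 against 39.0 CPM (2.60), the tetraspanin gene Cd9 at 192 against 57.8 (1.65), and Tnc at 539 against 166 (1.67, and 0.98 without w1). Vcam1, an adhesion molecule of the niche, was lower at 17.1 against 74.1 CPM (−1.84). Against NPC, Tnc (539 against 67.6 CPM, 2.91) and the integrin gene Itgb5 (116 against 15.8, 2.54) were among 5 of 22 that were higher.

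RGL also varied along the deposited pseudo-time, an order of nuclei from stem cell to mature neuron that the authors fitted to the same counts. In each library the late nuclei, the last of 3 equal groups in pseudo-time (162, 154, 119 and 28 nuclei) were set against the early nuclei, the first of the 3 (162, 153, 119 and 27). Late nuclei were shallower, with a median of 3163.5, 3539, 3115 and 3126 UMIs against 5820, 5356, 4432 and 4253. Of 9724 genes considered, 171 were higher in late RGL (1.76%) and 61 lower (0.627%), with a median over all genes of 0.15. Late RGL of w1 to w8 included 2, 2, 5 and 0 nuclei of pseudo-time above 4, while NPC had a median of 8.07. Without such nuclei 164 genes were higher and 62 lower, with 154 of the 171 and 57 of the 61 among them. Single genes were not compared again without these nuclei. Thinned to equal depth the counts were 252 and 81, but only 75 of the 171 and 37 of the 61 were among them. Leaving out w2 or w4 gave 333 or 336 higher genes, leaving out w1, w2 or w4 gave 105, 100 or 92 lower genes and leaving out w8 gave 38, so membership of these sets changed with depth and with single libraries.

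The genes lower in late RGL included transporters and other genes that astrocytes use. Slc4a4 was at 288, 273, 267 and 774 CPM in early RGL of w1 to w8 and at 63.7, 68.3, 87.4 and 147 in late RGL (log2 difference −2.07), without overlap. The zinc transporter gene Slc39a12 was at 75.6 against 322 CPM (−2.02), Luzp2 at 299 against 1093 (−1.85), Galnt18 at 28.9 against 111 (−1.77), the receptor phosphatase gene Ptprt at 433 against 1232 (−1.50), Gpc5 at 2158 against 5648 (−1.39), the sialyltransferase gene St6galnac5 at 292 against 764 (−1.37) and Pde4b at 259 against 654 CPM (−1.32). Of 24 astrocyte homeostasis genes considered, 4 were lower and none higher, with a median of −0.51, and beside Slc4a4 and Gpc5 they were Slc7a11 (27.8 against 67.0 CPM, −1.14) and the connexin gene Gjb6 (4.02 against 19.3, −1.43), which was not called without w8 (−0.92).

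Genes higher in late RGL included a cyclin, replication genes and neuronal genes. Ccnd2 was at 370, 347, 326 and 79.1 CPM in late RGL against 73.7, 118, 123 and 58.2 in early RGL (1.54), and at 1.39 once thinned, where not every library kept the direction. The calcium channel gene Itpr1 was at 82.7 against 16.9 CPM (2.00), the chromatin remodelling gene Baz1a at 52.3 against 12.4 (1.72) and the phosphodiesterase gene Pde10a at 199 against 62.4 (1.60). The Notch ligand Dll1 was at 26.8 against 6.10 CPM (1.52), Mcm6 at 45.7 against 17.2 (1.19), Mcm7 at 32.7 against 12.7 (1.09, and 0.91 without w8), Elavl2 at 122 against 53.8 (1.11), Elavl4 at 132 against 63.6 (1.00, and 0.70 without w8) and Neurog2 at 32.1 against 13.1 CPM (1.04, and 0.97 without w1 or 0.75 without w2). Cell cycle and replication genes and neuronal commitment genes each had 3 higher and none lower, of 11 and 12 considered, with medians of 0.68 and 0.57. The granule neuron marker list, summed as above, had 2 of 7 considered genes higher in late RGL, and its part in these calls was not tested. Enpp2 (2.23), Cacnb4 (2.18) and Ttr (2.02) were also called, but without the 4 nuclei rich in Htr2c their differences were 0.30, 0.75 and 0.38. The scaffold gene Iqgap2 went from 1.55 to 1.40 without them and no longer had the same direction in every library. The stem cell and radial glia genes had none of 18 called. Hopx (299 against 288 CPM, 0.05), Thrsp (628 against 508, 0.30) and Slc1a3 (−0.25) were not called either, and Fam20a (81.3 against 165 CPM, −0.98) lay just under the limit. Hes1 was lower in late RGL (10.2 against 27.8 CPM, −1.11), a call lost without w2 (−0.88).

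**Figure D4:**
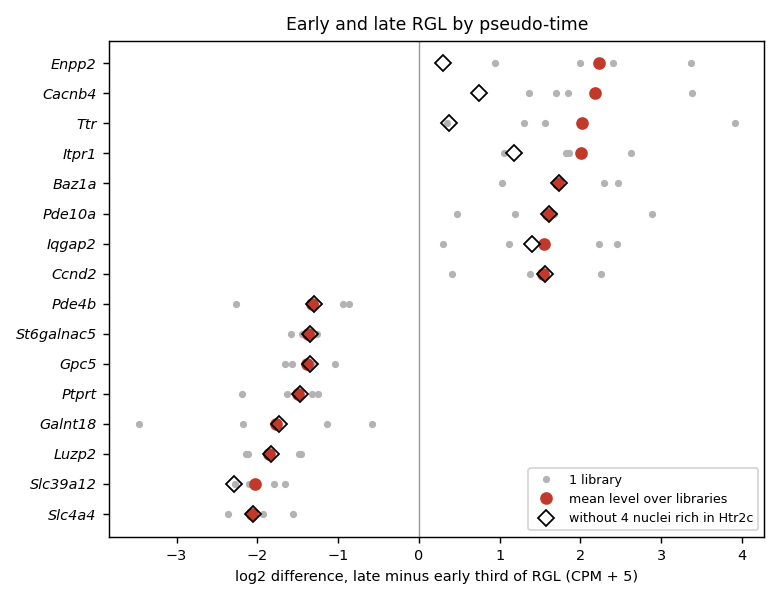
Log2 difference, late minus early RGL along the deposited pseudo-time, for the 16 named genes. Grey points are single libraries, red points the value from the mean over libraries, and diamonds the value without the 4 nuclei rich in Htr2c. Enpp2, Cacnb4 and Ttr moved from 2.23, 2.18 and 2.02 to 0.30, 0.75 and 0.38, while Slc4a4, Slc39a12 and Luzp2 stayed low.

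Between weeks, 805 of 9647 genes (8.34%) differed at least 2-fold between the highest and the lowest week with counting intervals apart. Among 274 listed genes with a mean of at least 10 CPM, 54 did so, and 22 of them were lowest in w8 (40.7%) and 17 highest in w8 (31.5%). Over all 805 genes, 49.3% were lowest and 22.6% highest in w8, the cohort with the fewest RGL nuclei and summed RGL UMIs. Among genes that differed, the share lowest in w8 was thus not larger for the listed genes. Among all genes considered it was larger, as 22 of 274 listed genes and 397 of 9647 genes differed and were lowest there. The listed genes also differed more often, 54 of 274 against 805 of 9647, and the part of their level in this was not tested. Each week was 1 pool, and time since tamoxifen cannot be told apart from age at collection, so these values describe 4 libraries. Of 18 stem cell and radial glia genes considered, 5 differed between weeks and 4 of these were lowest in the 83 RGL of w8, as were 6 of the 7 neuronal commitment genes that differed. Hes5 was at 93.1, 111, 44.2 and 38.2 CPM (w8 interval 19.8 to 66.8), Sox9 at 143, 153, 125 and 51.0 (29.2 to 82.8) and Ccnd2 at 167, 205, 188 and 79.7 CPM (51.6 to 118). The Notch ligand Jag1 fell from 70.7 CPM in w4 to 15.9 (5.17 to 37.2), and Igfbpl1, at 36.1, 80.3 and 25.8 CPM in w1, w2 and w4, had no UMI in w8. Neuroblasts NB1 made up 52.0, 22.5 and 3.39% of the kept nuclei of w1, w2 and w4, and w8 held none. The part of stray neuroblast RNA in the values of the neuronal commitment genes was not tested. Of 24 astrocyte homeostasis genes considered, 4 differed, all highest in w8. Slc4a4 was at 208, 153, 167 and 602 CPM (520 to 695), Htra1 at 114, 98.2, 84.7 and 233 (182 to 293), Glul at 125, 127, 112 and 245 (194 to 307) and Aqp4 at 11.7, 16.4, 22.1 and 44.6 CPM (24.4 to 74.9). For these genes w8 lay above the 3 other weeks, and for Sox9 and Ccnd2 below them. Fam20a reached 300 CPM in w8, and Acsl3 was at 762, 513, 504 and 1029.5 CPM. No nucleus of w8 was labelled astrocyte. Grin2c was at 3.19 CPM in w8 RGL against 307 in astrocytes, but 3 UMIs make 9.56 CPM there, so little can be read from it. The summed astrocyte marker list also stood highest in w8 RGL, at 854 CPM. Htra1, Glul and Aqp4 are themselves members of that list, and the part of stray astrocytes in these values was not tested. Of the 8 granule neuron markers, Syt1, Grin2a, Slc17a7 and Snap25 differed in this way, and each was highest in w4 and lowest in w1. Syt1, a synaptic vesicle protein gene, was at 13.9, 32.4, 93.5 and 38.2 CPM. The other markers did not differ in this way. Calb1, at 4.78, 6.11, 12.5 and 9.56 CPM, was also highest in w4 and lowest in w1, while Prox1 and Rbfox3 were highest in w1 and Ntng1 in w8. The list summed highest in w4, at 481 CPM, and its part in the other values of w4 was not tested.

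**Figure D5:**
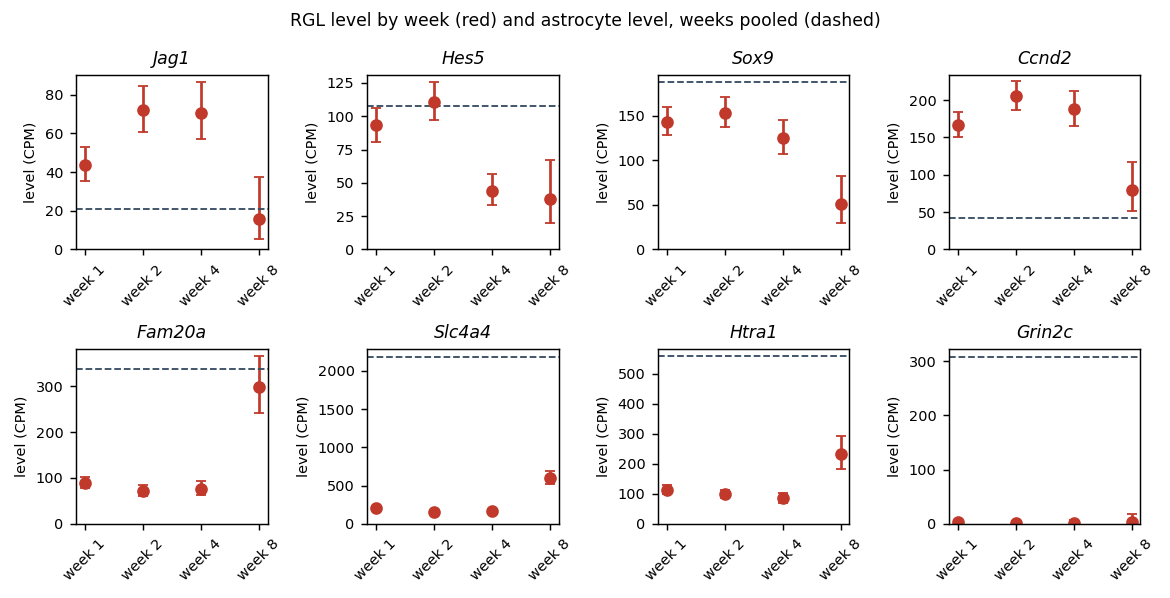
Level in CPM of 8 genes in RGL of each week after tamoxifen, with exact Poisson 95% intervals, and the level in pooled astrocytes as a dashed line. Jag1, Hes5, Sox9 and Ccnd2 were lowest at week 8, Fam20a, Slc4a4 and Htra1 highest, and Grin2c stayed under 4 CPM in RGL.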

How the data were processed

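Single-nucleus RNA libraries of 4 cohorts were analysed, 1 per week. The authors deposited whole UMI counts per feature and nucleus (45706 features, 17046 barcodes), made with STARsolo 2.7.4a and STAR per the labels on GRCm38 (mm10) over exons and introns, without multi-mapped reads. A second deposited table holds log2 values (counts over scran size factors, 1 added) of 13353 genes, and the cluster and pseudo-time of each nucleus. Doublets had been removed by the authors with scDblFinder, and no further caller was run. The 14367 nuclei of that table were used with the authors' clusters and the raw counts.

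UMIs were summed per library and group, and levels were averaged over libraries in CPM. Differences were taken on log2(CPM + 5), and the rule for calls stands in the report. Late and early RGL were the last and first of 3 equal groups in pseudo-time within each library. Levels have exact Poisson and shares exact Clopper-Pearson 95% intervals. For a gene with no UMI in a group, 3 counts over that group set the bound. Weeks could not be tested against each other, and clusters came from the same counts, so no p-values were computed. A library with fewer than 10 nuclei of a group was left out, so w8 entered no comparison with astrocytes or NPC. Precision falls where fewer UMIs are summed, and for RGL it was lowest in w8.

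The members, gene lists and comparisons were chosen with earlier results of these data known. The genes named were the 6 markers, the 12 called genes with the largest and the 6 with the smallest differences against all other nuclei and among genes highest in RGL, and 8 at each end of the other comparisons, with at least 50 CPM in the higher group and no clone names. Some genes that this rule chose are not reported here. Members of gene lists were named where the summary of a list turned on them. The 4 nuclei rich in Htr2c (at least 10 UMIs) were set apart after the data were seen. Promoters were RefSeq sequences of GRCm38.p6. TMM and RLE factors came from edgeR 4.0.16 in R 4.3.3, and all else from Python 3.11.15 with numpy 2.4.6, scipy 1.17.1 and pandas 2.3.3. The procedure was tested on simulated data with counting error only. That test does not cover differences between libraries or genes near the limits of level and fold. Alternatives were other pseudocounts, level limits, folds and scalings, thinning to 2000 UMIs, equal weight of nuclei or clusters, the log2 table, pseudo-time split in 2 groups, and each library left out.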

Additional observations from a re-analysis of the deposited data

How the results depend on the processing

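Of the counts of genes and the share of nuclei, 128 values under an alternative stayed within 1.5 times (or the interval) of the value given and 56 moved. Of the log2 differences of named genes and the medians over all genes, 694 stayed and 32 moved. No named gene reversed, but the medians against the rest and against NPC changed sign under TMM and RLE scaling. The move in a count follows from the alternative's own construction where a fold, level or pseudocount sets the call. With a pseudocount of 20 CPM the higher and lower counts were 933 (higher) against the rest, 455 (higher) against astrocytes, 563 and 868 against NPC, 862 (higher) against OPC, 22 and 16 for late RGL and 35 genes highest in RGL, and with 1 CPM 282 higher in late RGL. A level of at least 30 CPM gave 866, 512, 575, 832 and 53 higher for the rest, astrocytes, NPC, OPC and late RGL, and 31 lower in late RGL, and a level of 3 CPM gave 1616 higher than in astrocytes. A 1.5-fold limit gave 2206, 2067, 1525, 2445 and 781 higher in the same order, 955 lower than in astrocytes, 2669 lower than in NPC, 229 lower in late RGL and 143 highest in RGL. A 3-fold limit gave 865, 407, 454 and 748 higher, 277 and 659 lower than in astrocytes and NPC, and 20 highest in RGL. The deposited log2 table, whose values are compressed, gave 114 and 135 against the rest, 24 and 54 against astrocytes, 71 and 17 against NPC, and 81 and 179 against OPC. With TMM 1485 genes were higher and 821 lower than in NPC, and with RLE 875 were lower. Equal weight for each cluster of the rest gave 886 higher, and clusters of at least 100 nuclei gave 438 highest in RGL. Splitting pseudo-time in 2 groups gave 58 and 13. For late against early RGL, leaving out 1 library gave 191 to 336 higher (209 without w1, 333 without w2, 336 without w4, 191 without w8) and 38 to 105 lower (105, 100, 92 and 38). The share of RGL nuclei with cell cycle UMIs was 61.0% at 1 UMI, 16.5% at 3 UMIs and 13.4% after thinning.

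Clusters were compared within libraries, which pairs them by library, and no test was made on these pairs, since the clusters were defined on the same counts. Between weeks, each a single library, there were no pairs. Alternatives added after seeing the data were the runs without the 4 nuclei rich in Htr2c, without the 9 RGL nuclei of pseudo-time above 4, and with counting intervals clear of equality. Without the 9 RGL nuclei of pseudo-time above 4, 164 genes were higher and 62 lower in late RGL. Without the 4 nuclei the higher and lower counts were 1414 and 1180 against the rest, 1044 and 584 against astrocytes, 937 and 1430 against NPC, and 164 and 62 for late RGL. With intervals clear of equality they were 1421 and 1174, 919 and 572, 940 and 1399, and 167 and 56 in the same order, 1438 and 1046 against OPC, and 66 highest in RGL. Genes with no UMI in a group put at their bound in place of the fitted value moved a list's median by at most 0.219 over 80 list medians, and none changed sign. Levels in w8 rest on 83 nuclei and those of astrocytes on 67, so calls on genes near 10 CPM there rest on a few UMIs.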
